A study of Mus musculus with 4 samples.

Results

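The mitochondrial ribosomal proteins were described here through the 78 genes whose symbol begins with Mrpl or Mrps and a number, out of 22911 genes that the array probes could be named for, of which 49 carried an Mrpl and 29 an Mrps symbol. Each gene was read through its brightest probe, and the genes had 101 probes in all. To ask whether MOTS-c changes transcript levels in aged islets, the study used pancreatic islet cells from 4 male C57BL/6 littermates that were 60 weeks old. The islets were handpicked after collagenase digestion, dispersed into single cells and given 10 μM of peptide ex vivo for 24 h. A scrambled peptide went to the cells of 2 mice (scrambled replicates 1 and 2) and MOTS-c, a peptide encoded within the mitochondrial 12S rRNA gene, to those of the other 2 (MOTS-c replicates 2 and 3), so that both groups were cultured and both received a peptide, and no untreated or young cells were compared. RNA of each sample was hybridized to 1 one-color Agilent array, all on 1 slide. Values below are log2 intensities after quantile normalization, and differences are log2 fold changes of MOTS-c minus scrambled. These are whole dispersed islets, in which fewer cells of a type and less RNA per cell cannot be told apart.

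Mitochondria translate the few proteins of their own genome, all of them subunits of the respiratory chain and ATP synthase, on a ribosome of their own. Its rRNAs come from the mitochondrial genome, MOTS-c being read from within the gene of the small one, whereas every protein of its large and small subunits is encoded in the nucleus, made in the cytosol and imported. Some of these proteins have bacterial counterparts, and others were gained in the mitochondrial lineage. In β-cells the respiratory chain produces the ATP that couples glucose to insulin secretion.

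The samples were first checked against their labels. Of 7 beta-cell markers, 6 were well above background on all 4 arrays, as were all 4 pan-endocrine markers, whereas Slc2a2, the glucose transporter of mouse β-cells, was so on 3 arrays. The log2 fold changes of the 7 had a median of -0.04, 3 being above 0, and ran from -1.33 in Slc2a2 to 0.16 in Mafa. Of other endocrine markers, 3 of 4 alpha and 2 of 2 delta markers were well above background on all 4 arrays. Gcg read 15.56 to 15.72 and Sst 17.16 to 17.72, and the PP marker Ppy was above background on 3 arrays. Of the non-endocrine markers, 3 of 7 acinar, 3 of 4 duct, 2 of 5 endothelial, 5 of 7 mesenchymal and 3 of 5 immune ones were above background on none of the arrays. Tested non-endocrine markers included Cela1, an acinar protease, at 11.77 and 11.90 on the scrambled against 11.23 and 10.92 on the MOTS-c arrays. All 5 markers of dividing cells, Mki67 among them at 13.54 to 14.49, were above background on all arrays. The labels give male mice, yet the 7 probes of Y-linked genes were above background on none of the arrays (0 of 28 readings), while Xist, which is transcribed from the inactive X chromosome, was above it on all 4. What these marker and sex-linked values contribute to the members' values was not tested.

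No mitochondrial ribosomal protein gene passed the test. All 78 members were well above background on all 4 arrays and were tested among 35087 probes, and 0 of 78 had an adjusted p under 0.05 in limma, beside 0% of all probes, the smallest adjusted p being 0.612 among the members and 0.474 among all probes. At an unadjusted p under 0.05, 0 members were higher with MOTS-c, beside 3.03% of all probes, and 2 members were lower, Mrps18b and Mrpl54, beside 4.82%. In the brightest quartile of probes, which held 73 of the 78 members, 68 of 8772 probes were higher and 212 lower at that p. How the count of lower members moved with an array left out, where 1 group holds a lone array, is given in the closing section. The log2 fold change then ran from -0.52 to -0.27 for Mrps18b and from -0.39 to -0.30 for Mrpl54. By the methods' t-test, the counts over all arrays were 4 higher members (5.13%, beside 3.08% of all probes) and 5 lower ones (6.41%, beside 3.51%), with 0 after Benjamini-Hochberg adjustment. At limma's unadjusted p under 0.05 and a change of at least 1.5-fold, 0.585 on the log2 scale, 0 members were higher and 0 lower. Beside them stood 1.1% and 2.43% of all probes, and 10 and 45 of the 8772 probes of the brightest quartile. The 2 groups did not overlap for 16 members that were higher on both MOTS-c arrays, beside 19.4% of all probes, and for 18 that were lower, beside 18.6%. These counts are 20.5% and 23.1% of the members, each near the share over all probes.

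The fold changes of the members ran from -0.39 (Mrps18b) to 0.24 (Mrps24), with 36 above and 42 below 0 and a median of -0.01, and 0 members reached 1.5-fold. The median size of the change, whatever its sign, was 0.07 among the members, 0.14 over all probes tested and 0.09 over the brightest quartile of probes, to which 73 of the 78 members belonged. The 95% interval of the fold change lay inside 1.5-fold in either direction for 73 of 78 members (93.6%), against 50.2% of all probes, 79.8% of the brightest quartile, 98.8% of 80 cytosolic ribosomal protein genes and 100% of 73 nuclear genes of the respiratory chain and ATP synthase. The exceptions were Mrps18b, Mrpl54, Mrps28, Mrps6 and Mrpl35, whose intervals reached past 1.5-fold lower. With each array shifted to a common 75th percentile in place of the quantile step, 22 members lay above 0 and 56 below it, their median was -0.05, and the groups did not overlap for 7 higher members (8.97%, beside 16.7% of all probes) and 27 lower ones (34.6%, beside 20.5%), so the balance of directions depended on the scaling. An exact permutation test of 2 against 2 arrays cannot go below a two-sided p of 0.333, and the intervals rest on 2 residual degrees of freedom and the 2.64 that limma added from the other probes.

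**Figure D1:**
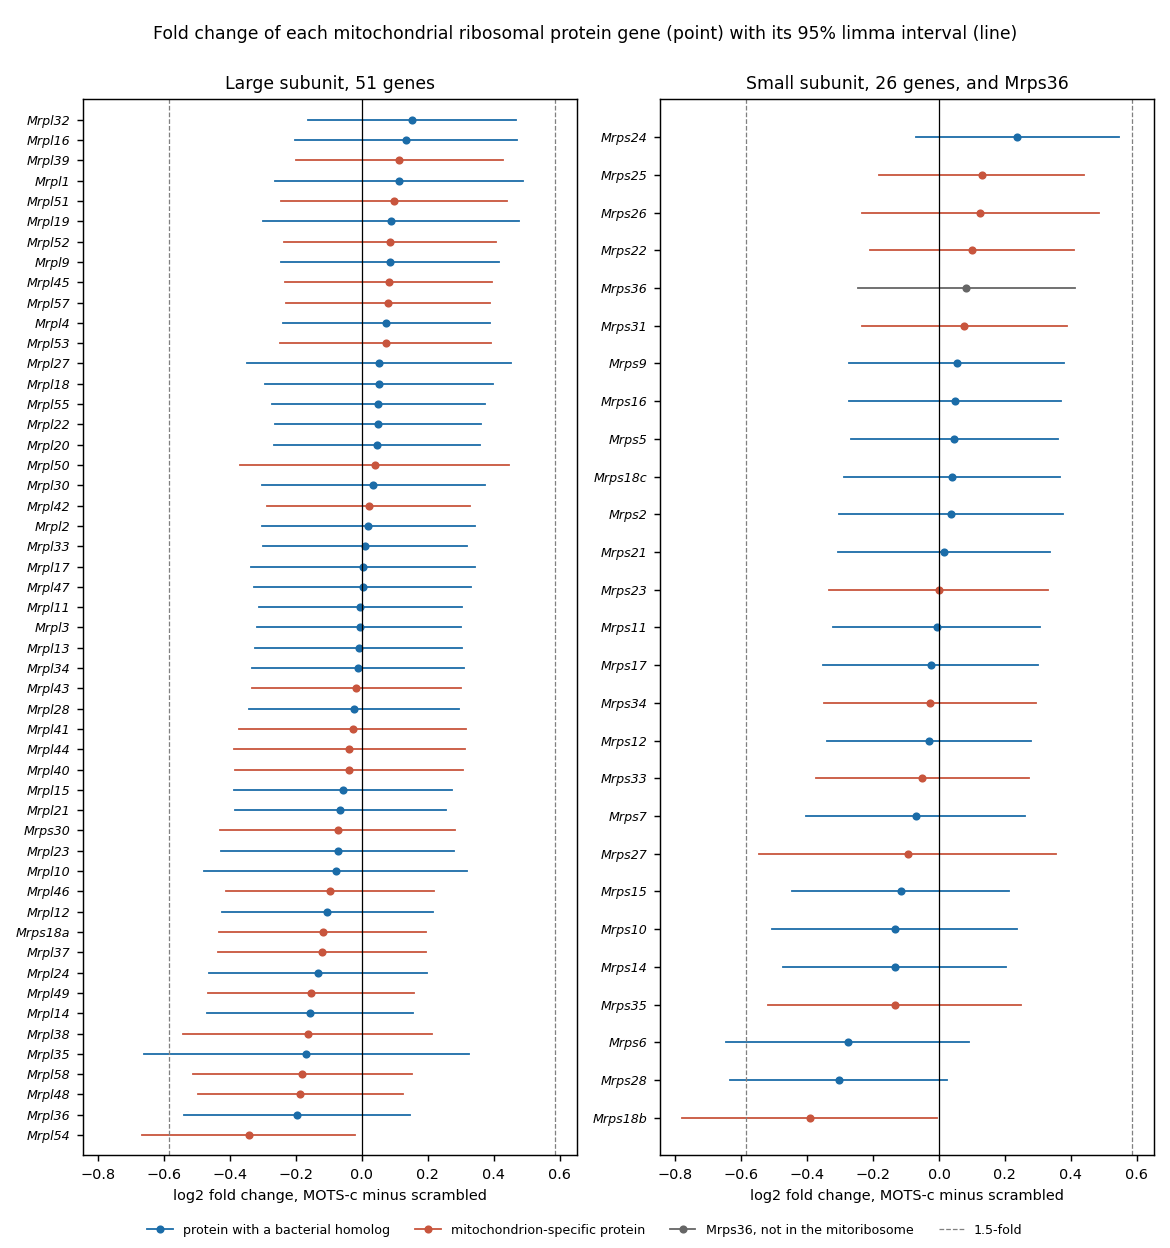
Log2 fold change (MOTS-c minus scrambled, horizontal axis) of each of the 78 genes as a point with its 95% limma interval as a line, for the 51 genes of the large subunit on the left and, on the right, the 26 of the small subunit and Mrps36. Colors show whether the protein was counted as having a bacterial homolog, and dashed lines mark 1.5-fold. The points run from -0.39 for Mrps18b to 0.24 for Mrps24, and the intervals of 76 genes include 0, the exceptions being Mrps18b and Mrpl54.

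The promoters of 69 members were found in the RefSeq table (build GRCm38.p6), which gives 250 bases before and 50 after each start, 3 of these members having several starts, for 75 promoters in all. Their median GC content was 58.7% and their median number of CG pairs 21, against 52.7% and 7 over all 32851 promoters. On either strand, a CCGGAAG word, bound by ETS factors such as GABP, occurred in 34.7% of member promoters and 8.86% of all promoters. The NRF1 word GCGCATGC was found in 10.7% against 2.71%, and a YY1 word, AAGATGGCG, in 10.7% against 1.4%. The E-box CACGTG occurred in 9.33% against 7.15%, but 3 of the 7 member promoters with it were overlapping starts of Mrpl2, and counted by gene it occurred in 7.25% of members against 8.09% of all genes. The TATA box TATAAA occurred in 6.67% of member promoters against 13.6%. The NRF1 word overlaps its own reverse complement where the 10-letter palindrome is present, and these shares were not corrected for GC content. The stretches from 230 bases before to 30 after the start are given for the 2 members at the ends of the range of fold changes (Mrps18b and Mrps24), for Mrpl36 and Mrpl32, near either end within the large subunit, and for Mrps18a and Mrpl33, which each hold 2 of the words near the start. Capitals mark whole matches to the 5 words on either strand, read 5′ to 3′ along the gene's strand.
Mrps18b, chr17:35916411-35916670, minus strand: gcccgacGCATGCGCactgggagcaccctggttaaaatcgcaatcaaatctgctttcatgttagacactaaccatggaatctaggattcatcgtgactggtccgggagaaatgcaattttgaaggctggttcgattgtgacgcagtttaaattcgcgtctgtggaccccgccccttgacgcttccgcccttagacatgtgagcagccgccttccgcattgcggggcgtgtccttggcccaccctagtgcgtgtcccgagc
Mrps24, chr11:5707672-5707931, minus strand: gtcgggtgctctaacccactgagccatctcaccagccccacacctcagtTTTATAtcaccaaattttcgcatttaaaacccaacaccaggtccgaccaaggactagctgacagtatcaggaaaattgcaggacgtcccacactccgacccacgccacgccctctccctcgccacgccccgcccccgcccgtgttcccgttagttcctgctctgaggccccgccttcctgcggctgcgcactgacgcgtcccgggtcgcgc
Mrpl36, chr13:73330779-73331038, plus strand: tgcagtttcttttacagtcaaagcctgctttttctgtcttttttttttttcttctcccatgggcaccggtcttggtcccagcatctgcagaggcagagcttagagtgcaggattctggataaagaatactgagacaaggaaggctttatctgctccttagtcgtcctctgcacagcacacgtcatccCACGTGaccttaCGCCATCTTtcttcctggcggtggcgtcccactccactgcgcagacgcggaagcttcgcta
Mrpl32, chr13:14613008-14613267, minus strand: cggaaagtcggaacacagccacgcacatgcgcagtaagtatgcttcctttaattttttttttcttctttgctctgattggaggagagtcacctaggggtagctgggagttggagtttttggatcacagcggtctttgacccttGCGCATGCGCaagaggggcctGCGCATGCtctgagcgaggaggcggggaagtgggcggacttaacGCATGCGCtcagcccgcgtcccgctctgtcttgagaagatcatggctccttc
Mrps18a, chr17:46110774-46111033, plus strand: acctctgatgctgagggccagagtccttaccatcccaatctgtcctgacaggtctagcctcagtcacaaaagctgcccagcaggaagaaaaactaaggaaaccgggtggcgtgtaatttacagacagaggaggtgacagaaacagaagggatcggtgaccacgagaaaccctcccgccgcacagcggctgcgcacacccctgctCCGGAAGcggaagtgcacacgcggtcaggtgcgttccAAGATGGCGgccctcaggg
Mrpl33, chr5:31613721-31613980, plus strand: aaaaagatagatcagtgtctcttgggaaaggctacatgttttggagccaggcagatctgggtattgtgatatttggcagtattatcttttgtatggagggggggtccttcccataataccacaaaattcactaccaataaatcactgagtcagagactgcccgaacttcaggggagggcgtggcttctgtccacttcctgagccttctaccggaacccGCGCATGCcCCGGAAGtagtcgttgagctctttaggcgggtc
The capitals are the NRF1 word in Mrps18b, at -223 from the start, the TATA word in Mrps24, at -181, and in Mrpl36 the E-box at -43 followed by the YY1 word at -31. Mrpl32 holds the NRF1 word 4 times counted over both strands, the matches at -87 and -85 overlapping in the palindrome. Mrps18a holds the ETS word at -26 and the YY1 word at 12, and Mrpl33 the NRF1 word at -12 and the ETS word at -3. The searched stretch runs further than the printed one. Cut by the printed end or beyond it, Mrps18b also holds an NRF1 word at 29 and an ETS word at 44, and Mrps24 a YY1 word at 37. A match is a description of the letters and not a measured binding site. Among the 69 members, the 26 with an ETS word had a median log2 fold change of 0.01 (14 above and 12 below 0) and the others of -0.01, and the 8 with an NRF1 word had one of 0.03 (6 above and 2 below 0). The 8 with a YY1 word had a median of -0.11 (2 above and 6 below 0), between -0.20 and 0.24, and the others one of 0.00. Of those 6, Mrpl35 and Mrps27 had overlapping groups and turned sign with an array left out. Differences between members with and without a word were not tested.

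In the small subunit, which binds the mRNA and decodes it, the median over 26 members was -0.02 on the log2 scale, with 11 above and 15 below 0. The groups did not overlap for 5 higher and 6 lower members, beside 19.4% and 18.6% of all probes. Mrps18b, a mitochondrion-specific relative of a bacterial protein that also gave rise to Mrps18a and Mrps18c, had the lowest fold change of all members. It measured 14.33 and 14.41 with the scrambled peptide against 14.11 and 13.85 with MOTS-c, a log2 fold change of -0.39 (SE 0.15, adjusted p = 0.627). The groups did not overlap, MOTS-c replicate 3 being the lowest array, and without MOTS-c replicate 3 the difference was -0.27. A second probe of Mrps18b read 10.29 and 10.57 against 10.29 and 10.12, a log2 fold change of -0.23 (SE 0.16), also with both MOTS-c arrays lower, by 0.003 at the nearest. Mrps28, the counterpart of part of a bacterial mRNA-binding protein, measured 14.33 and 14.36 against 14.11 and 13.98 (log2 fold change -0.30, SE 0.12, adjusted p = 0.668). Mrps6, which has a bacterial counterpart that pairs with the one of Mrps18c, measured 14.49 and 14.32 against 14.21 and 14.04 (-0.28, SE 0.14, adjusted p = 0.716). For both genes the groups did not overlap, and the higher MOTS-c array of Mrps6 lay 0.11 below its lower scrambled array.

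At the other end of the small subunit, Mrps24, the counterpart of a bacterial protein at the entry of the mRNA channel, measured 12.80 and 12.78 on the scrambled and 13.02 and 13.03 on the MOTS-c arrays. Its log2 fold change of 0.24 (SE 0.12, adjusted p = 0.708) was the highest of all members, and its replicates lay within 0.02 of each other in both groups. Mrps25, a mitochondrion-specific protein, measured 14.06 and 14.05 against 14.20 and 14.16 (0.13, SE 0.12, adjusted p = 0.836), and Mrps22, another one, measured 11.90 and 11.89 against 12.00 and 11.99 (0.10, SE 0.12, adjusted p = 0.874). In both, the groups were apart by more than the replicates within a group, and neither passed the test. Mrps31, also mitochondrion-specific, had a log2 fold change of 0.08 with groups apart. Mrps26, with 14.76 and 14.64 against 14.92 and 14.74, had one of 0.13, and there scrambled replicate 1 lay above MOTS-c replicate 3. The low end also held Mrps35 (log2 fold change -0.13, groups overlapping) and Mrps14 (-0.13, both MOTS-c arrays lower).

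The large subunit, which forms the peptide bond, held 51 members, with a median log2 fold change of -0.01, 24 above and 27 below 0. Groups did not overlap for 11 higher and 12 lower members, beside 19.4% and 18.6% of all probes. Mrpl54, a mitochondrion-specific protein, stood lowest, with 14.27 and 14.32 on the scrambled and 14.00 and 13.90 on the MOTS-c arrays, a log2 fold change of -0.34 (SE 0.12, adjusted p = 0.612). Both MOTS-c arrays were lower by at least 0.27, and leaving out any array gave a log2 fold change between -0.39 and -0.30. Mrpl36, a small zinc-binding protein with a bacterial counterpart, measured 13.82 and 13.88 against 13.57 and 13.74 (-0.20, SE 0.13, adjusted p = 0.773), and the value was -0.12 without MOTS-c replicate 2. Mrpl48, a mitochondrion-specific protein of the central protuberance, measured 14.34 and 14.37 against 14.18 and 14.15 (-0.19, SE 0.12, adjusted p = 0.764). Its other probe gave -0.30 (SE 0.13), and on both probes the MOTS-c arrays were the lower ones. Mrpl58, formerly Ict1, a peptidyl-tRNA hydrolase that is both a ribosomal protein and a rescue factor for stalled mitochondrial ribosomes, had a log2 fold change of -0.18 (SE 0.13) by its brightest probe and of -0.15 (SE 0.13) by the other, again with each MOTS-c array lower. Mrpl35 was the dimmest member, at 8.07 and 7.86 against 7.99 and 7.60, and its groups overlapped (-0.17, SE 0.19, adjusted p = 0.865), MOTS-c replicate 3 alone standing apart: without that array the difference was 0.03.

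The highest fold changes of the large subunit were smaller than its lowest. Mrpl32, a zinc-binding protein that is cut by the m-AAA protease before it joins the ribosome, measured 12.63 and 12.66 on the scrambled and 12.76 and 12.84 on the MOTS-c arrays (0.15, SE 0.12, adjusted p = 0.811), with groups apart. Mrpl16, whose bacterial counterpart lies near the tRNA sites, measured 12.75 and 12.81 against 12.99 and 12.84 (0.13, SE 0.13, adjusted p = 0.843), and the value was 0.06 without MOTS-c replicate 2. Mrpl39, a mitochondrion-specific protein, had a log2 fold change of 0.11 (SE 0.12) with groups apart. Mrpl1, of the mobile stalk beside the site where spent tRNA leaves, measured 12.03 and 12.02 against 12.01 and 12.26, so that its 0.11 came from MOTS-c replicate 3 alone, and its second probe gave -0.04. Mrpl51 had a log2 fold change of 0.10 with overlapping groups, and of 0.02 without scrambled replicate 2. The probes of 3 large-subunit genes were the brightest of the members (Mrpl20, Mrpl33 and Mrpl57) and stayed within 0.05 of their own mean over the arrays. Mrpl33 read 15.84 and 15.82 against 15.83 and 15.85, a log2 fold change of 0.01 (SE 0.12), Mrpl20 one of 0.05 and Mrpl57 one of 0.08. The other dim members, Mrps27 of the small and Mrpl50 of the large subunit, had log2 fold changes of -0.10 (SE 0.17) and 0.04 (SE 0.15), with overlapping groups.

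**Figure D2:**
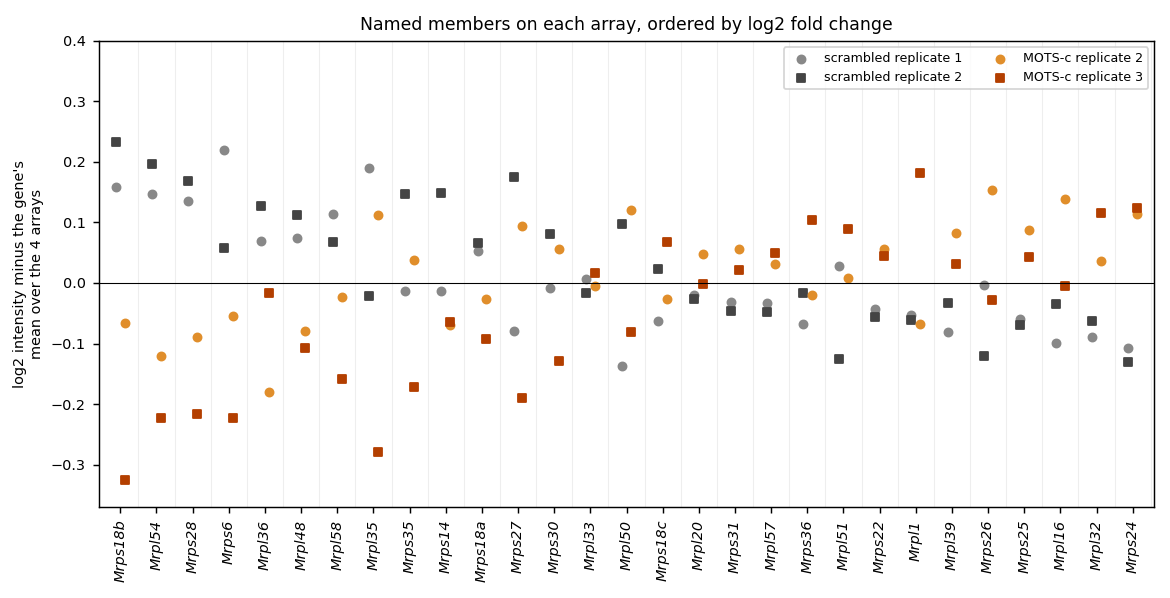
Log2 intensity of 29 named members on each array, minus the gene's own mean over the 4 arrays (vertical axis), ordered by log2 fold change from Mrps18b on the left to Mrps24 on the right; gray symbols are the 2 scrambled arrays and orange symbols the 2 MOTS-c arrays. The gray and orange symbols are apart at both ends, and MOTS-c replicate 3 (dark orange squares) is the lowest symbol for Mrps18b, Mrpl54, Mrps28, Mrps6 and Mrpl35.

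The other 49 members had log2 fold changes between -0.16 and 0.09 (SE 0.12 to 0.15, adjusted p from 0.799 to 0.998), 20 of them above and 29 below 0. Groups were apart for 7 higher and 9 lower members, beside 19.4% and 18.6% of all probes. A few are given for their place in the ribosome rather than for their values. In the stalk that recruits the translation factors, Mrpl12, which is also known to bind the mitochondrial RNA polymerase, measured 13.73 and 13.80 on the scrambled against 13.69 and 13.62 on the MOTS-c arrays (-0.10, SE 0.12, adjusted p = 0.874), and both MOTS-c arrays were lower. Its neighbors Mrpl10 and Mrpl11 had log2 fold changes of -0.08 and of 0.00 by rounding, with overlapping groups. Around the tunnel through which the new protein leaves, Mrpl22 (0.05) and Mrpl45 (0.08), the latter a contact to the inner membrane, had both MOTS-c arrays higher, Mrpl24 (-0.13) had both lower, and the groups of Mrpl23 (-0.07) overlapped. Mrps12, of the decoding center, measured 14.57 and 14.54 against 14.54 and 14.52 (-0.03, SE 0.12).

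Names and places in the ribosome differ for several members. Mrps18a and Mrps30 carry small-subunit names, but their proteins lie in the large subunit and were counted there. Mrps18a measured 13.37 and 13.39 on the scrambled and 13.30 and 13.23 on the MOTS-c arrays (log2 fold change -0.12, SE 0.12, adjusted p = 0.849), both MOTS-c arrays being lower, and Mrps30 had one of -0.07 (SE 0.14) with overlapping groups. Mrps18c, the direct counterpart of the bacterial protein, measured 14.45 and 14.53 against 14.48 and 14.58 (0.04, SE 0.12), with overlapping groups. A second probe of Mrps18c read 14.15 and 14.09 against 14.18 and 14.22 (0.08, SE 0.12), both MOTS-c arrays being higher. Of the 3 paralogs, Mrps18b and Mrps18a had both MOTS-c arrays lower and Mrps18c did not, beside 18.6% of all probes lower without overlap. Mrps36 is named as a ribosomal protein but belongs to the 2-oxoglutarate dehydrogenase complex of the citric acid cycle, and it had a log2 fold change of 0.08 (SE 0.12) with overlapping groups. Grouped by origin, 46 members were counted as having a bacterial homolog. They lay above 0 for 23 and below for 23, with a median size of change of 0.05. The 31 members counted as mitochondrion-specific lay above 0 for 12 and below for 19, with one of 0.10. Mrps18a and Mrps18b were counted among these 31 although they are relatives of the bacterial counterpart of Mrps18c. Both members with an unadjusted p under 0.05, Mrps18b and Mrpl54, were in that group, beside 4.82% of all probes lower at that p. Of 21 members with 2 or more tested probes, all probes of a gene had the same sign in 11 and not in 10, and the probes of 1 gene differed by at most 0.23, in Mrps5, named for that gap.

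Array by array, the members differed little more between the groups than within them. The median difference between the arrays of a pair was 0.06 for the scrambled replicates and 0.08 for the MOTS-c replicates, and between 0.08 and 0.10 for the 4 pairs across groups. No pair of arrays differed by 1.5-fold for any member. MOTS-c replicate 3 was the lowest of the 4 arrays for 30 members (38.5%) and MOTS-c replicate 2 for 10 (12.8%), beside 36% and 14.5% of the brightest quartile of probes, so the MOTS-c arrays differed from each other in this among all bright probes too. The median deviation of the members from their own means was -0.02 on MOTS-c replicate 3 and 0.01 on MOTS-c replicate 2, and it was -0.01 and 0.01 on scrambled replicates 1 and 2.

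**Figure D3:**
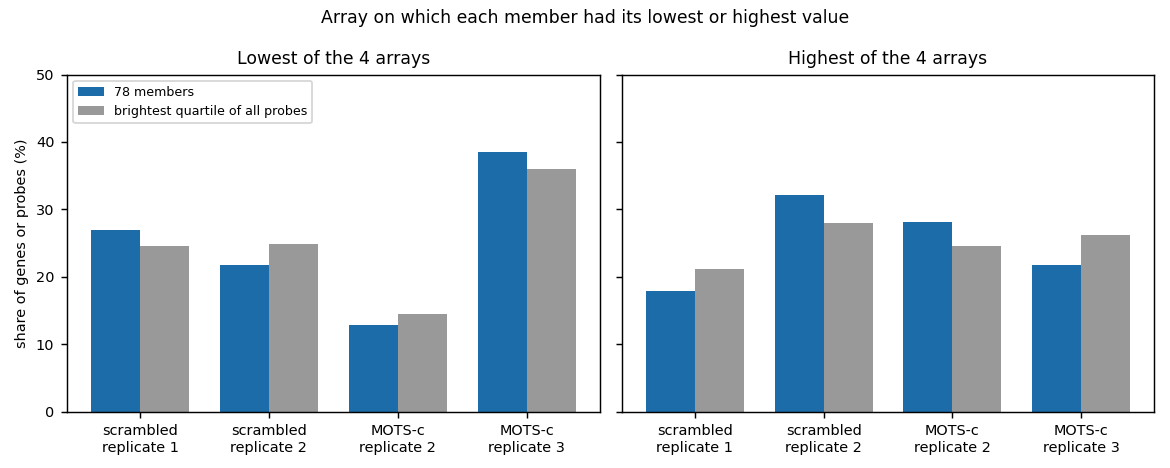
Share of the 78 members (blue) and of the brightest quartile of all probes (gray) whose lowest value (left) or highest value (right) fell on each of the 4 arrays, in percent. MOTS-c replicate 3 holds the most lowest values in both sets (38.5% and 36%), and scrambled replicate 2 the most highest values (32.1% and 28%).

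Other genes of mitochondrial translation were read from lists of known members. The counts below stand beside shares over all probes of 19.4% higher and 18.6% lower without overlap. At an unadjusted p under 0.05, these shares were 3.03% and 4.82%. Of 5 mitoribosomal proteins under other symbols, 2 lay above and 3 below 0, beside the 36 above and 42 below among the members. Of these, 3 are named after their values were seen. Gadd45gip1, a large-subunit protein, lay furthest from 0. It measured 12.94 and 13.04 on the scrambled and 12.64 and 12.67 on the MOTS-c arrays (-0.34, adjusted p = 0.615), and was the only one of the 5 with an unadjusted p under 0.05. Ptcd3, an RNA-binding protein of the small subunit, had a log2 fold change of 0.22, and Dap3, a GTP-binding protein of that subunit, one of 0.10, both with groups apart. Among 28 assembly and rRNA modification factors, 18 lay above and 10 below 0, with a median of 0.03, 7 higher and 4 lower without overlap, and 1 with an unadjusted p under 0.05, Gtpbp10, a GTPase that helps the large subunit to mature, at 10.47 and 10.31 against 10.69 and 10.91 (0.41, adjusted p = 0.613), likewise named after its values were seen. The 14 translation factors had a median of 0.01 and none with an unadjusted p under 0.05, with 1 higher and 2 lower without overlap. Tufm, the mitochondrial elongation factor that delivers aminoacyl-tRNA, had a log2 fold change of -0.11, with both MOTS-c arrays lower, and Pdf, the deformylase that trims new mitochondrial proteins, one of 0.03 with overlapping groups. Mtif2, the initiation factor, measured 14.31 and 14.25 against 14.19 and 14.98, so that its 0.31 (adjusted p = 0.837) came from MOTS-c replicate 3 and was -0.09 without it.

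The 19 factors of mitochondrial DNA and RNA, which supply the transcripts and rRNAs that the ribosome needs, had a median of 0.06. With the 75th percentile shift it was 0.0091. Without overlap were 7 higher and 1 lower, beside 19.4% and 18.6% of all probes. Tfam, which packages mitochondrial DNA and helps to start its transcription, had a log2 fold change of 0.08 with overlapping groups. Polrmt, the mitochondrial RNA polymerase, measured 11.23 and 11.30 on the scrambled and 11.13 and 11.14 on the MOTS-c arrays (-0.14, adjusted p = 0.831). Trmt10c, a subunit of mitochondrial RNase P, named after its values were seen, was the only one of the list with an unadjusted p under 0.05, at 8.78 and 8.58 against 9.05 and 9.07 (0.38, adjusted p = 0.606). At that p, 3.03% of all probes were higher and 4.82% lower. Among 9 tested transcriptional regulators of mitochondrial genes, 5 lay above and 4 below 0, none with an unadjusted p under 0.05, between -0.46 and 0.36. Groups were apart for 4 higher and 4 lower regulators, beside 19.4% and 18.6% of all probes, a difference that was not tested. The regulators include factors that bind the words searched in the promoters, each named for that reason. Nrf1 had a log2 fold change of 0.10, Gabpa one of 0.27 with overlapping groups, Gabpb1 one of 0.13 and Yy1 one of -0.11. For the E-box, Myc had one of 0.36 with both MOTS-c arrays higher, and Mycn one of -0.46 with both lower. Transcripts of the mitochondrial genome itself, the templates of this ribosome, were not analysed here.

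The lists most like the members also had medians near 0. The SD of the log2 fold changes over genes was 0.12 for the members, 0.08 for the cytosolic ribosomal proteins and 0.08 for the nuclear respiratory chain genes, and the median size of the change was 0.07, 0.04 and 0.06, differences that were not tested. The 80 tested cytosolic ribosomal protein genes had a median of 0.00 by rounding, with 39 above and 41 below 0 and groups apart for 13 higher and 19 lower genes, and 1 of them, Rpl37, had an unadjusted p under 0.05 (-0.43, adjusted p = 0.539, named after its values were seen). The 73 nuclear genes of the respiratory chain and ATP synthase, whose products assemble with those made on the mitoribosome, had a median of -0.01, with 32 above and 41 below 0, groups apart for 13 higher and 19 lower genes, and none with an unadjusted p under 0.05. Over all probes, groups were apart for 19.4% higher and 18.6% lower, and at an unadjusted p under 0.05 the shares were 3.03% and 4.82%. No gene of any list passed 1.5-fold.

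**Figure D4:**
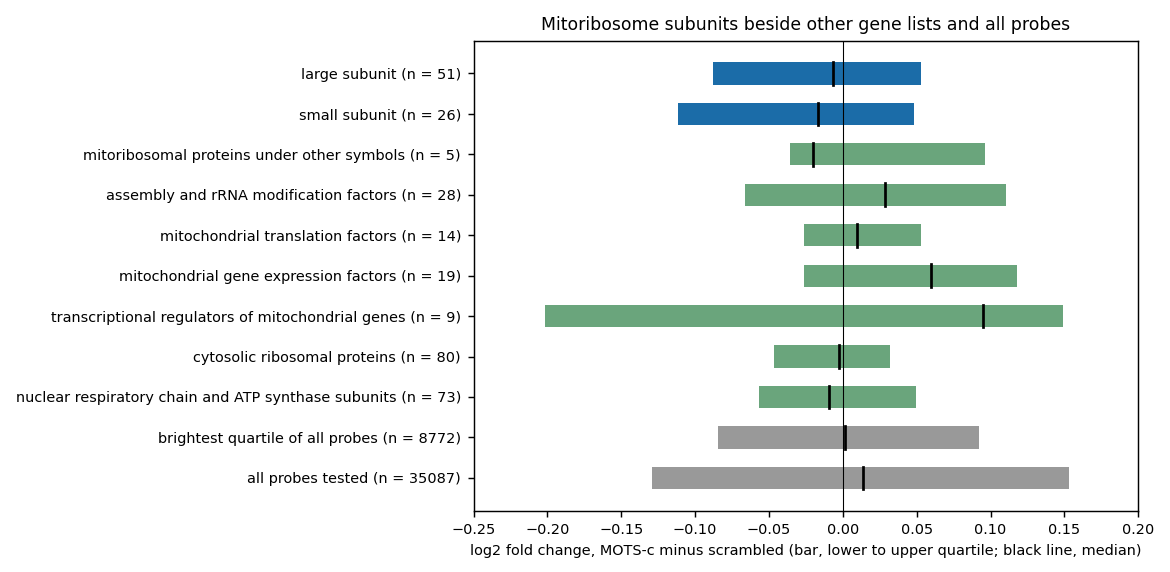
Lower to upper quartile (bar) and median (black line) of the log2 fold changes (MOTS-c minus scrambled) of the large and small subunit (blue), of the other gene lists (green) and of all probes and their brightest quartile (gray), with the number of genes or probes in each. The medians of the subunits, -0.01 and -0.02, lie near 0, and the widest bar belongs to the 9 transcriptional regulators.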

How the data were processed

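RNA of the 4 samples was Cy3 labeled and hybridized by the authors to Agilent SurePrint G3 Mouse arrays, and the deposited intensity values, from Feature Extraction 11.0, carry a background correction but no scaling from array to array. Samples were grouped by the treatment in their labels. Control and outlier spots were dropped, the rest log2 transformed and averaged per probe, and the 35087 probes rated well above background on 2 or more arrays were quantile normalized. MOTS-c was compared with scrambled over these probes by limma (version 3.58.1, R 4.3.3), with Benjamini-Hochberg adjustment, after a test on simulated data. Genes were named through accessions in the gene table of assembly GRCm38.p6 (32994 probes). The array is annotated on another build, so probes have no coordinates here. The members and lists were chosen with earlier results of these data known, and subunit and origin of each member are textbook knowledge.

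Named by rule were the 5 highest and 5 lowest log2 fold changes of each subunit, members past 1.5-fold with an unadjusted p under 0.05, the 3 brightest and 3 dimmest, members with probes of opposite sign over 0.5 apart, the Mrps18 paralogs, Mrps30, Mrps36 and, of the other lists, genes past 1.5-fold with that p and Pdf, Tufm, Tfam, Polrmt and Mtif2. Alternatives were a 75th percentile shift, normexp (offset 50, run on medians of the spots, the means not being in the files), the authors' rounded intensities, no or a strict (all 4 arrays) filter on dim probes, the mean over a gene's probes, limma with a trend, the methods' t-test and leaving out each array. A slide block was not run, all arrays being on 1 slide.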

Additional observations from a re-analysis of the deposited data

How the results depend on the processing

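No member had an adjusted p under 0.05, or passed 1.5-fold with an unadjusted p under 0.05, under any of the 12 alternatives. Over all probes, the methods' t-test with Benjamini-Hochberg adjustment called 1 probe, not a member. The number of arrays limits the precision, and the cause of the moves below was not tested. No paired analysis was possible because the cells of each mouse received only 1 of the peptides.

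Members lower at an unadjusted p under 0.05 numbered 4 with normexp (5.13%, beside 5.36% of all probes) and 4 without a filter (beside 4.58%), 1 with the mean over probes (1.28%, beside 5%), 5 with a trend (6.41%, beside 5.4%), 5 by the methods' t-test (beside 3.51%), 0 without scrambled replicate 1, scrambled replicate 2 or MOTS-c replicate 3, and 1 without MOTS-c replicate 2 (beside 2.57% to 7.17% with an array left out). Those higher numbered 1 without a filter (1.28%, beside 3.6%), 1 with a trend (beside 3%) and 4 by the t-test (5.13%, beside 3.08%). Members without overlap and higher numbered 7 with the 75th percentile shift and 24 to 30 (30.8% to 38.5%, beside 34.5% to 37.5% of all probes) with an array left out, and those lower 24 to 34 (30.8% to 43.6%, beside 29.3% to 38.3%) with an array left out, where by construction a lone array of 1 group is set against the other group.

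With the 75th percentile shift, the large subunit had a median log2 fold change of -0.044 and the small subunit one of -0.0646. Under that shift the medians were -0.0808 for the mitoribosomal proteins under other symbols and 0.0091 for the gene expression factors. For the cytosolic ribosomal proteins the median was -0.0758, and for the nuclear respiratory chain genes -0.0712. Averaged probes gave 0.0571 for the proteins under other symbols and 0.0109 for the regulators, for which normexp gave 0.198. With an array left out, the medians ran from -0.0117 to 0.0271 for the proteins under other symbols, -0.0633 to 0.0437 for the translation factors, 0.0185 to 0.112 for the gene expression factors and -0.0089 to 0.0634 for the regulators.

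With an array left out, the value moved by over 1.5 times or turned sign for 16 of the 29 named members, none of which passed the test. The sign turned with the 75th percentile shift for Mrpl20 (-0.0188), Mrpl33 (-0.0594) and Mrps18c (-0.024), and for Pdf with normexp (-0.0345) and averaged probes (-0.0169). It also turned with an array left out, the values running from -0.3603 to 0.0287 for Mrpl35, from -0.0121 to 0.2355 for Mrpl1, from -0.0025 to 0.0223 for Mrpl33, from -0.0778 to 0.1555 for Mrpl50, from -0.2324 to 0.0452 for Mrps27, from -0.0067 to 0.0882 for Mrps18c, from -0.165 to 0.019 for Mrps30, from -0.0236 to 0.0775 for Pdf and from -0.0863 to 0.6992 for Mtif2.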
